A study of Rattus norvegicus with 65 samples.

Results

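The cytosolic ribosomal protein genes encode the proteins of the large (Rpl) and small (Rps) subunits of the ribosome that translates nuclear mRNAs. Members were all protein-coding entries of the rat gene table whose symbol is Rpl or Rps followed by a number and at most 1 letter, together with the stalk and laminin receptor genes Rplp0, Rplp1, Rplp2 and Rpsa. This gave 82 genes of 38513 in the table, 49 of the large and 33 of the small subunit. They carry 81 symbols, because Rps19 is annotated on both chromosome 1 and chromosome 9. All 82 passed the filter on low counts, which left 21871 genes for testing.

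RNA of the dissected hypothalamus of 65 male Wistar rats was sequenced, with 1 library per animal. Apart from the lean group, the rats were 9 to 10 weeks old at the start and ate a high-fat diet for 6 weeks before the intervention, and tissue was taken 4 weeks after it, following a 10 h fast. The groups were Roux-en-Y gastric bypass (RYGB, n = 14), sham surgery (sham, n = 11), food restriction to the body weight of RYGB-treated animals (BWM, n = 7), lean rats (lean, n = 6), and treatment with saline (n = 8), the gut hormone PYY3-36 by minipump (n = 4), the GLP-1 receptor agonist liraglutide by injection (n = 5) or both drugs (PYY3-36 + liraglutide, n = 10). The labels give no diet or age for the lean rats, and the paper mentions a low-fat-diet-only group without tying it to this label. The animals were studied in 2 periods, called batch A and batch B, which hold 37 and 28 libraries. BWM and lean animals were in batch A only, PYY3-36- and liraglutide-treated animals in batch B only, and RYGB-treated animals were split 11 and 3, sham-treated animals 5 and 6. According to the labels, library fragments measured about 285 bp in batch A and 335 bp in batch B.

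Most ribosomal proteins are made in equal numbers for each ribosome, the stalk proteins Rplp1 and Rplp2 being an exception. The mRNAs of ribosomal proteins are among the most abundant of most cells. Their transcripts typically begin inside an unbroken pyrimidine stretch, the 5′ terminal oligopyrimidine (TOP) motif, through which mTOR, acting on the RNA-binding protein Larp1, controls how well they are translated. In the hypothalamus, mTOR and S6 kinase are known as sensors of nutrients and leptin. Translation itself was not measured here.

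The windows around the annotated transcription start are shown because a pyrimidine run at the start is the sequence feature for which these genes are known, and they include members with and without a long run. Each line gives 15 bases before the start and 15 bases from the start onward, and capitals mark the longest unbroken run of C and T (sequences from RefSeq, GRCr8 build). Rpl31 lies at chr9:49143096-49143125 (+ strand), Rplp1 at chr8:71290858-71290887 (- strand), Rps15 at chr7:10068101-10068130 (- strand), Rps18 at chr20:4933730-4933759 (+ strand), Rpl13 at chr19:68062499-68062528 (+ strand), Rpl6 at chr12:41011676-41011705 (- strand), Rps27 at chr2:177964592-177964621 (- strand), Rps27l at chr8:76443643-76443672 (+ strand) and Rpl3l at chr10:14258431-14258460 (+ strand).
Rpl31: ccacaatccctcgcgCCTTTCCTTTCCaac
Rplp1: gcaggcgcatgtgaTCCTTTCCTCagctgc
Rps15: cgctgacaccgCTTCCTTTTCCCagcagcc
Rps18: cacgtcacttccgCTCTCTCTTCCacagga
Rpl13: ctttgcggtgcccgaTCCTTTCCgctcggc
Rpl6: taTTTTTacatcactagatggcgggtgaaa
Rps27: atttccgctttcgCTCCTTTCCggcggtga
Rps27l: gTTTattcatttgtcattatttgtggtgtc
Rpl3l: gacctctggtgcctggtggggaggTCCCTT

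A window was at hand for 66 of the 81 symbols. In 42 of them (63.6%) the run was 8 bases or longer, compared with 11.4% of all 33469 rat windows, and the median run was 9 bases against 4. The run of Rpl31 begins at the annotated start and spans 12 bases, whereas Rps27l, a paralogue of Rps27, has no run beyond 3 bases. Short runs were not limited to paralogues, since Rpl11, Rpl41 and Rps12 also had 3 bases and Rpl3 had 5. The letters GGGCGG, on either strand of the full window of 250 bases before to 50 after the start, occurred in 56.1% of the members and 33.1% of all windows, and TATAAA in 10.6% and 14.2%. Such a match describes the letters only. Of the genes that fell after RYGB, Rpl31 had a run of 12 bases and Rpl6 one of 5. The starts are annotated and were not measured here. A short run, as in Rpl6, Rpl11, Rpl41 or Rps12, therefore does not show that the transcript lacks a TOP motif.

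The libraries held 20040821 to 36539714 counts on genes (median 29571483 for the batch A libraries, 23385849 for batch B). All 13 hypothalamic marker genes were measured, and Pmch and Oxt reached medians of 563 and 407 CPM (counts scaled to a common library total). However, 12 libraries had a summed marker level of at most 206 CPM, while the median was 1966 CPM and the next library had 461 CPM. These were 3 sham, 2 saline, 2 lean, 2 liraglutide, 1 PYY3-36, 1 PYY3-36 + liraglutide and 1 BWM library and no RYGB library. The library of BWM animal 5 held 76751 CPM of anterior pituitary markers. Markers of other brain regions were high in some of the 12 low libraries. The 4 striatal markers summed to 2849 CPM in BWM animal 1, 2329 in sham animal 6 and 2661 in sham animal 10. The 4 cortical markers summed to 1791 CPM in sham animal 2 and 1161 in saline animal 4. Saline animal 3, also of the 12, had 287 and 22.9 CPM. Saline animal 8, not of the 12, had 1317 CPM of striatal markers. Whether the dissected region differed was not tested. As the tissue was bulk, fewer cells of a type and less RNA per cell cannot be told apart.

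The members together took 1.88% ± 0.400 of all counts (SD, n = 65; range 1.32% to 3.15%). Compared as reads per exon length and library size (RPKM, over 65 libraries), most members lay within about an order of magnitude. The highest was Rps29, a small zinc-binding protein of the small subunit, with a median of 836 RPKM (609 to 1848). It was followed by the stalk protein gene Rplp1 with 747 RPKM (515 to 1899), by Rpl41, which encodes a very short basic peptide, with 724 RPKM (552 to 1571), and by Rpl21 with 661 RPKM (481 to 1342). The ranges of these 4 genes overlapped, so their order is not resolved.

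The 4 lowest genes were all paralogues of ubiquitous members. Rpl3l, the striated muscle form of Rpl3, had a median of 0.281 RPKM (0.0293 to 1.03), compared with 448 RPKM for Rpl3 (338 to 661). Rpl10l and Rpl39l, known from testis, had medians of 1.57 RPKM (0.345 to 3.3) and 2.27 RPKM (0.271 to 78.6), whereas Rpl10 and Rpl39 had 390 RPKM (256 to 638) and 105 RPKM (74.2 to 225). Rps27l, a p53 target, reached 14.2 RPKM (8.68 to 25.5) against 490 RPKM for Rps27 (328 to 1081). In the X-linked Rps4x the median was 314 RPKM (196 to 493). The next gene above the 4 was Rpl35a with 65.1 RPKM (42.1 to 126), whose range lay wholly above that of Rps27l. The counted Rpl35a entry lies on chromosome 12, with 348 exon bases and fractional counts in 100% of libraries. The RefSeq start of Rpl35a in the GRCr8 build lies on chromosome 11, so this level may not be that of the gene itself. The levels carry a further limit: a read that matched several places was divided among them, 90.7% of the members' nonzero values were not whole numbers (30.3% over all genes), and 823 pseudogenes and unnamed copies of 77 member symbols took a further 0.399% of counts on average.

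**Figure D1:**
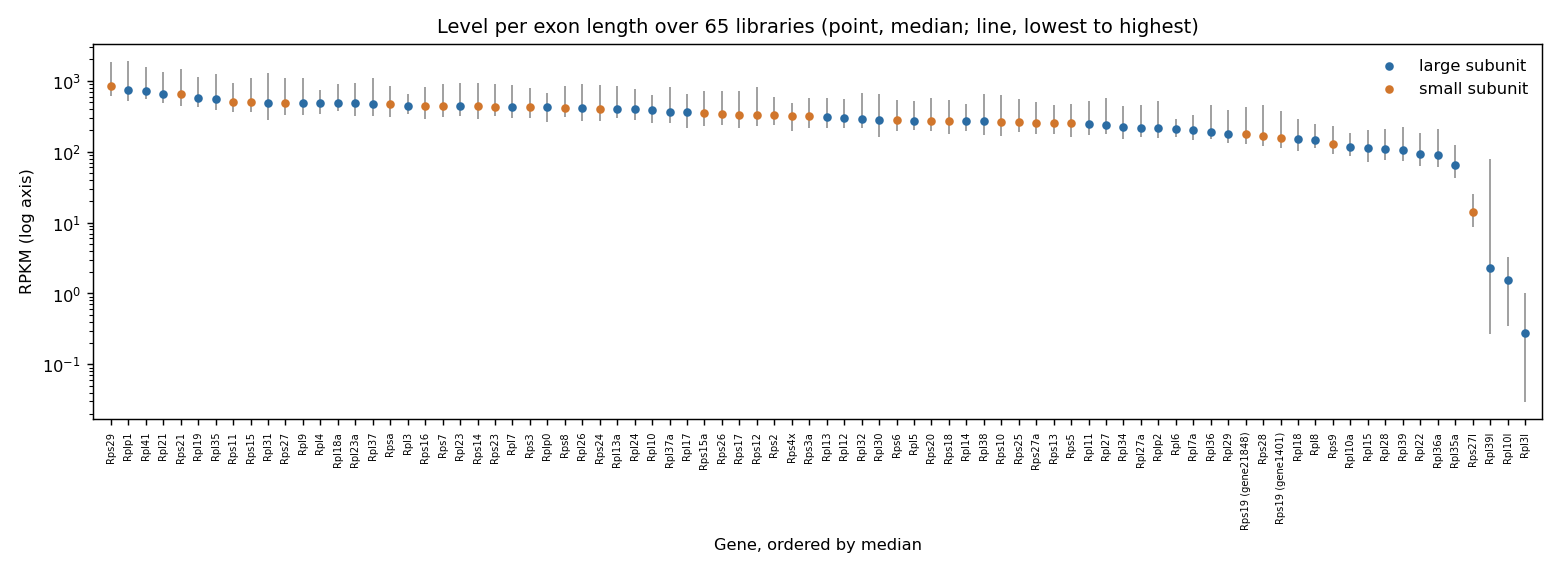
Level of each of the 82 genes per exon length (RPKM, log axis), ordered by the median over 65 libraries. Points show the median and lines the lowest to highest library. Most genes lie between 65.1 and 836 RPKM, and the paralogues Rps27l, Rpl39l, Rpl10l and Rpl3l fall from 14.2 to 0.281 RPKM.

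RYGB-treated animals were compared with sham-treated animals first. Of the 82 genes, 14 (17.1%; 7 of each subunit) fell at an adjusted p under 0.05 and none rose, beside 6.53% of all genes tested that were lower, 6.52% that were higher and 13% called in either direction. The median log2 fold change was -0.30 (-0.31 for the large and -0.28 for the small subunit), compared with -0.02 over all genes tested, and 81 of 82 values were below 0. None was called with an absolute log2 fold change over 1 (2.37% of all genes). With DESeq2, 15 members fell, and the share of all genes called by it is not given. With DESeq2's size factors in the edgeR fit 7 fell, beside 5.46% of all genes lower, 6.85% higher and 2.35% past the fold of 1. The test was edgeR's quasi-likelihood test with Benjamini-Hochberg adjustment over all 21871 genes, with group and batch in the model.

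Rpl13, a large subunit protein, had the smallest adjusted p. Its level ranged from 157 to 385 CPM in RYGB-treated animals (median 206, n = 14) and from 207 to 407 CPM in sham-treated animals (median 299, n = 11). In batch B, the 3 RYGB libraries had 211, 211 and 257 CPM and the 6 sham libraries 241 to 407 CPM. In batch A, the sham libraries had 207, 256, 272, 327 and 317 CPM, compared with 157 to 231 CPM in 10 RYGB libraries and 385 CPM in RYGB animal 11. The groups thus overlapped in both batches, in batch A through RYGB animal 11 and the lowest sham library. The log2 fold change was -0.40 ± 0.10 (SE; adjusted p = 0.00741, edgeR), and it was the one member that remained called in each of 25 fits that left out 1 library of either group, with the adjusted p at most 0.0273.

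Rpl31, a protein at the rim of the exit tunnel, showed a larger difference in batch B. The 3 RYGB libraries had 189, 193 and 220 CPM, and the sham libraries 259 to 564 CPM (median 357, n = 6), without overlap. In batch A, the sham libraries had 159, 217, 205, 261 and 280 CPM, and 10 RYGB libraries lay between 128 and 195 CPM, with 410 CPM in RYGB animal 11. Only the lowest sham library and RYGB animal 11 crossed over. The log2 fold change over both batches was -0.48 ± 0.15 (SE; adjusted p = 0.0272, edgeR).

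Rplp1, the acidic protein that pairs with Rplp2 on the ribosomal stalk to bring in elongation factors, followed the same pattern. In batch B, RYGB libraries had 296, 307 and 346 CPM and sham libraries 377 to 942 CPM (median 536), without overlap. In batch A, sham libraries had 311, 418, 387, 533 and 537 CPM, and RYGB libraries ranged from 265 to 735 CPM (median 316, n = 11), with an overlap. The log2 fold change was -0.47 ± 0.14 (SE; adjusted p = 0.0237, edgeR).

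Rpl6, another large subunit protein, differed less and varied less between libraries. Its level was 204 ± 27.5 CPM in RYGB-treated animals (SD, n = 14) and 243 ± 28.6 CPM in sham-treated animals (SD, n = 11), and the ranges of 176 to 283 and 175 to 283 CPM covered each other. The log2 fold change was -0.20 ± 0.07 (SE; adjusted p = 0.032, edgeR). Among the other called genes, Rps15 went from 344 ± 73.0 CPM in sham- to 250 ± 88.5 CPM in RYGB-treated animals (SD; log2 fold change -0.41, adjusted p = 0.0321, edgeR). For Rpl37 the means were 256 ± 60.9 and 176 ± 67.4 CPM (-0.47, adjusted p = 0.0331, edgeR), for Rps18 202 ± 50.9 and 137 ± 47.2 CPM (-0.42, adjusted p = 0.0335, edgeR) and for Rpl27a 319 ± 83.3 and 225 ± 69.5 CPM (-0.38, adjusted p = 0.038, edgeR). Means that pool both batches, here and below, are not adjusted for batch, whereas the fold changes are. Members were higher in batch B (median log2 fold change 0.33), which held 3 of 14 RYGB- and 6 of 11 sham-treated animals. The remaining calls were Rps27a, Rps25, Rpl35a (the chromosome 12 entry), Rps7 and both entries of Rps19, with log2 fold changes of -0.36 to -0.44. The Rps19 entries share their reads (medians 94.7 and 94.1 CPM) and are not independent of each other.

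**Figure D2:**
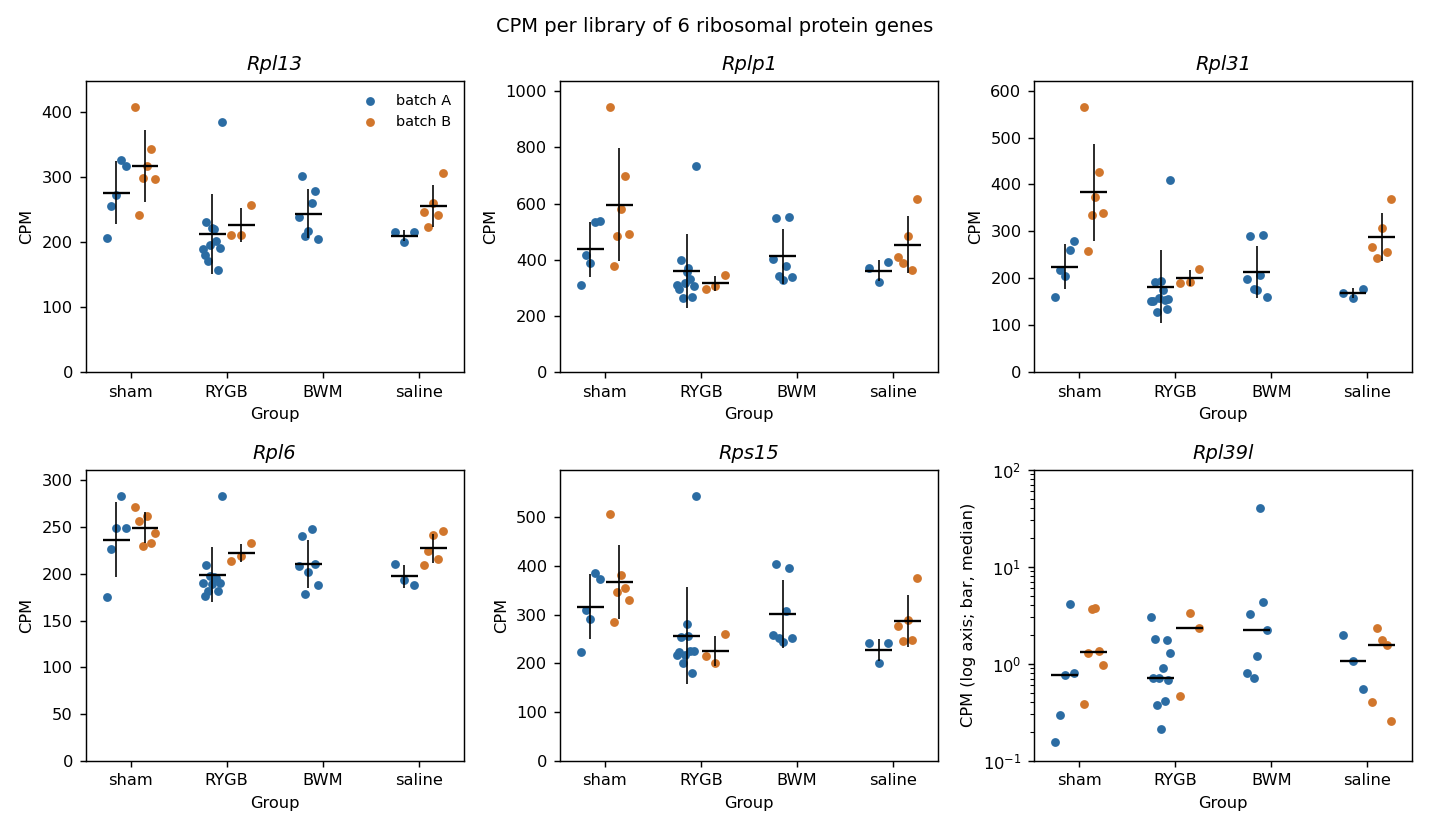
CPM of 6 ribosomal protein genes in each library of the sham, RYGB, BWM and saline groups, coloured by batch. Bars and lines show mean and SD per batch, except for Rpl39l, whose axis is logarithmic and whose bars are medians. RYGB animal 11 is the high point of the RYGB group in the first 5 panels (385 CPM of Rpl13), and BWM animal 5 stands at 40 CPM of Rpl39l.

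Whether the difference between RYGB and sham was seen in each period was examined next. In batch B alone, 70 of 82 members fell (all genes tested lower, 5.53%), with a median log2 fold change of -0.59, led by Rps21 (-0.85 ± 0.16, SE; adjusted p = 0.0022, edgeR), Rpl38 (-0.80 ± 0.15, SE; adjusted p = 0.00237, edgeR) and Rpl39, a small protein of the exit tunnel (-0.82 ± 0.15, SE; adjusted p = 0.00218, edgeR). For 69 members every RYGB library was below every sham library, as for 8.25% of all genes. In batch A alone, no member passed the edgeR test (4 had an unadjusted p under 0.05; all genes tested lower, 1.01%). Of these 4, Rpl13 and Rpl6 were below 0 and Rpl10l (0.83) and Rpl10a (0.28) above it. In batch A the median was -0.15, and no member was free of overlap (0.142% of all genes). The groups of batch B were only 3 and 6 animals.

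The difference between the batches was itself tested as an interaction. No member passed in edgeR (20 had an unadjusted p under 0.05; DESeq2 was not run on it), and the median of the interaction was -0.47. The share of all genes at an unadjusted p under 0.05 is not given. The lowest adjusted p was that of Rpl10a, with -0.69 ± 0.18 (SE; adjusted p = 0.13, edgeR). Without RYGB animal 11, 4 members fell in batch A, namely Rpl13, Rpl6, Rpl31 and Rps15 (all genes tested lower, 5.21%), at a median of -0.29. These 4 are named after their values were seen.

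The count of 14 rested on single libraries. It rose to 71 without RYGB animal 11, to 44 without sham animal 1 and to 25 without sham animal 7. It was 1, namely Rpl13, without RYGB animal 12 or 13 or sham animal 4, 5 or 6, and 2 and 3 without RYGB animals 14 and 9. It was 6 without RYGB animal 4, 7 without RYGB animal 1 or 2 or sham animal 9 or 10, 8 without RYGB animal 10, and 9 without RYGB animal 5 or sham animal 3 or 8. The median stayed between -0.41 and -0.26 in these fits. The shares of all genes called in them are not given. These counts therefore do not show that the members moved more than other genes. Leaving out the 12 libraries low in hypothalamic markers, 3 of them sham, left no member called in edgeR (lowest adjusted p = 0.0552, Rpl13) with a median of -0.29.

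Each library's share of counts on the members showed the same layout. In batch B the share was 1.77% ± 0.145 in RYGB-treated (SD, n = 3), 2.5% ± 0.266 in sham-treated (SD, n = 6) and 2.05% ± 0.265 in saline-treated animals (SD, n = 5). In batch A it was 1.76% ± 0.494 (SD, n = 11), 1.85% ± 0.365 (SD, n = 5) and 1.70% ± 0.155 (SD, n = 3). The RYGB and sham ranges of batch B, 1.68% to 1.94% and 2.09% to 2.89%, did not overlap, and those of batch A did. RYGB animal 11 had the highest share of all 65 libraries, 3.15%, while the other RYGB libraries of batch A had 1.39% to 2.02%.

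A further measure moved with this share. The members are short, with a median exon length of 618 bases compared with 2911 for the protein-coding genes tested. Libraries differed in how strongly log2 CPM rose with log2 exon length among the other genes. The other genes include short copies that shared reads with the members, so the slope is not independent of the members. This slope was 0.71 ± 0.07 in RYGB-treated (SD, n = 14) and 0.63 ± 0.05 in sham-treated animals (SD, n = 11), and 0.50 in RYGB animal 11, the lowest of all libraries. With the slope as a covariate, no member was called between RYGB and sham in edgeR (lowest adjusted p = 0.0665, Rpl13), and the median log2 fold change was -0.04. Rpl13 kept -0.19 ± 0.06 and Rpl31 -0.21 ± 0.08 (SE; adjusted p = 0.163, edgeR) in that fit.

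Other short genes were examined in the same way. Among the 1275 other protein-coding genes with exons under 1000 bases, 21.5% fell and the median log2 fold change was -0.23. This class includes protein-coding copies of members, which shared reads with them. From 1000 to under 2000 bases 12% fell (median -0.09), from 2000 to under 4000 bases 5.08% (-0.01), and at 4000 bases or more 1.83% (0.07), whereas 17.1% of the members fell. The share of counts on mitochondrial rRNA and tRNA was also different, with 0.957% ± 0.355 in RYGB-treated and 1.75% ± 0.677 in sham-treated animals (SD). The summed level of the 5 oligodendrocyte markers, all measured and none at 0 throughout, ranged from 6996 to 44705 CPM in RYGB-treated and from 9148 to 43227 CPM in sham-treated animals (medians 13892 and 21637). The summed meningeal markers (all 7 entries measured) ranged from 41.7 to 1411 CPM in RYGB-treated and from 25.8 to 387 CPM in sham-treated animals (medians 176 and 58.8), while batch A alone had medians of 249 and 38.6 CPM, batch B alone 81.8 and 90.1 CPM. The 4 striatal markers, all measured, ranged from 101 to 354 CPM in RYGB-treated and from 75.6 to 2661 CPM in sham-treated animals (medians 169 and 264). The 5 neuronal markers ranged from 1938 to 7246 CPM in RYGB-treated and from 3167 to 5782 CPM in sham-treated animals. For the 4 cortical markers the ranges were 4.75 to 856 and 4.51 to 1791 CPM. Other marker lists are not set out here. None of these markers was at 0 in all libraries. The part of mitochondrial RNA and of these cell types or regions in the result was not tested.

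**Figure D3:**
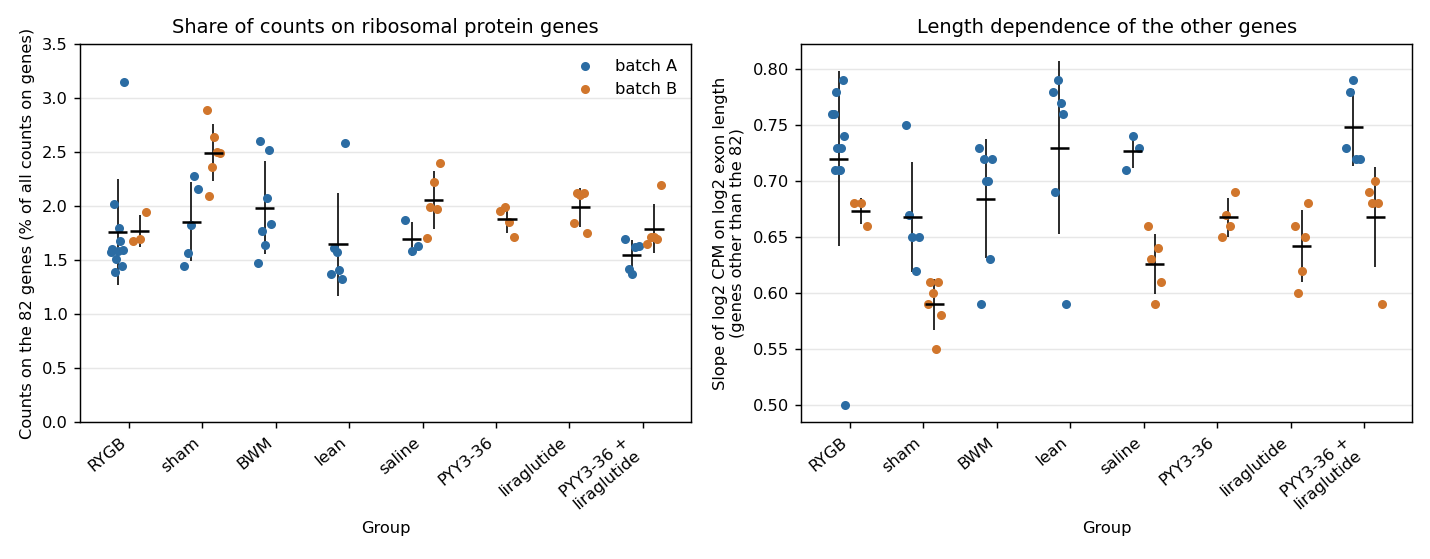
Left, percent of each library's counts on the 82 genes by group and batch. Right, slope of log2 CPM on log2 exon length over the other genes. Points are libraries, bars means and lines SD. In batch B the sham libraries lie above the RYGB libraries on the left (2.09% or more against 1.94% or less) and below them on the right. RYGB animal 11 is the highest point on the left (3.15%) and the lowest on the right (0.50).

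Members with particular roles were also compared between RYGB and sham. Of the stalk proteins, Rplp1 fell, while Rplp0, the base of the stalk, gave a log2 fold change of -0.17 ± 0.09 (SE; adjusted p = 0.196, edgeR) and Rplp2 of -0.34 ± 0.15 (SE; adjusted p = 0.106, edgeR). Rpl5 and Rpl11, which enter the ribosome with 5S rRNA and otherwise bind Mdm2, gave -0.25 and -0.32 (adjusted p = 0.114 and 0.0874, edgeR). Rps6, the substrate of S6 kinase, had 220 ± 63.0 CPM in RYGB-treated and 269 ± 61.9 CPM in sham-treated animals (SD; -0.16, adjusted p = 0.378, edgeR).

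Rps27a, which is made as a fusion with ubiquitin, fell (-0.38 ± 0.13, SE; adjusted p = 0.0393, edgeR), from 402 ± 94.4 to 279 ± 82.5 CPM (SD). Rpl13a, known for a role in inflammatory translational control, and Rps3, at the mRNA entry site, gave -0.29 and -0.28 (adjusted p = 0.103 and 0.0795, edgeR). Rpsa, also known as laminin receptor, gave -0.21 (adjusted p = 0.133) and Rpl41 -0.23 (adjusted p = 0.21, edgeR). Both Rps19 entries, a gene mutated in Diamond-Blackfan anaemia, fell by 0.44 on the log2 scale.

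Among the paralogues, Rpl10l was the single member above 0 (0.36 ± 0.30, SE; adjusted p = 0.436, edgeR), with Rpl10 at -0.09. Rpl3l had the lowest value, -0.85 ± 0.32 (SE; adjusted p = 0.0672, edgeR), at 1 to 16 counts per RYGB library, with Rpl3 at -0.17. Rps27l and Rps27 gave -0.21 and -0.28, Rpl39l and Rpl39 -0.19 and -0.37, and Rps4x -0.12, none of which passed the test. With so few counts a small change of Rpl3l was not detectable at this depth.

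BWM animals, whose weight was matched by food restriction, were compared with the same sham-treated animals. No member passed the edgeR test (2 had an unadjusted p under 0.05, and 0.32% of all genes were called, 0.00914% lower and 0.311% higher), and the median was -0.05 with 63 values below 0. Within batch A, the period of all BWM animals, the direction turned: the median was 0.03, 30 values were below 0 and 52 above, and no member was called in edgeR (4 had an unadjusted p under 0.05, all of them above 0). With DESeq2 on both batches, 1 member was higher, Rpl39l. The share of counts was 1.99% ± 0.433 in BWM animals (SD, n = 7), beside 1.76% ± 0.494 in RYGB- and 1.85% ± 0.365 in sham-treated animals of the same batch, with ranges that overlapped.

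Rpl39l differed through a single library. BWM libraries 1 to 7 had 0.811, 3.23, 0.714, 1.2, 40, 4.38 and 2.21 CPM, compared with 0.157 to 4.12 CPM in sham- and 0.215 to 3.37 CPM in RYGB-treated animals. BWM animal 5 lay far above all others and BWM animal 6 just above the sham range. Animal 5 is the library with 76751 CPM of anterior pituitary markers (7 of 7 measured, 1.14 to 76751 CPM in BWM, at most 468 in sham- and 497 in RYGB-treated animals). The edgeR fit gave 2.45 ± 0.64 for BWM against sham (SE; adjusted p = 0.0637) and 0.59 ± 0.57 without BWM animal 5 (adjusted p = 0.795).

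Compared directly with BWM animals, RYGB-treated animals had 1 member that fell, Rpl39l (-2.64 ± 0.56, SE; adjusted p = 0.0116, edgeR; all genes called, 0.343%, of which 0.334% lower and 0.00914% higher), and without BWM animal 5 no member was called (Rpl39l -0.78 ± 0.51, adjusted p = 0.576). The median of the members was -0.27, with all 82 values below 0, and -0.16 to -0.38 when single libraries were left out. Rpl39 gave -0.40 ± 0.15 (SE; adjusted p = 0.283, edgeR) and Rps27l -0.41 ± 0.16 (SE; adjusted p = 0.308, edgeR). Without RYGB animal 11, Rpl39 fell too (adjusted p = 0.0354, edgeR), which raised the count to 2. This fit used the RYGB libraries of both batches, whereas all BWM animals were in batch A. Within batch A the median was -0.19 and no member was called in edgeR (1 had an unadjusted p under 0.05).

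Lean rats had values below those of the same sham-treated animals, with a median log2 fold change of -0.35 and 81 members below 0, but no member passed the edgeR test (47 had an unadjusted p under 0.05, DESeq2 called 0, and 0% of all genes were called). Within batch A, which holds all lean animals and 5 of the sham-treated ones, the median was -0.27 and 4 members had an unadjusted p under 0.05 (none called in edgeR), of which Rpl10l was above 0 (0.96). Rpl6 came closest in the fit of both batches (-0.33 ± 0.09, SE; adjusted p = 0.151, edgeR), followed by Rpl13 (-0.38 ± 0.13) and Rps2, of the mRNA entry channel (-0.35 ± 0.13). The share of counts was 1.32% to 1.61% in 5 lean libraries and 2.58% in lean animal 6. Without this animal 47 members fell, at a median of -0.54, and without sham animal 1 only Rpl6 did (adjusted p = 0.0207, edgeR). The shares of all genes called in these fits, or at an unadjusted p under 0.05, are not given. These counts therefore do not show that the members moved more than other genes. With the length slope as covariate the median was -0.05.

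Treatment with gut hormones gave no called member. PYY3-36-treated animals had a median log2 fold change of -0.18 relative to saline, liraglutide-treated animals -0.05 and PYY3-36 + liraglutide-treated animals -0.19, with single members between -0.52 and 0.09. No member had an unadjusted p under 0.05 in edgeR in any of the 3 comparisons or was called by DESeq2, and 0%, 0% and 0.00457% of all genes were called. Within batch B, which holds all PYY3-36- and liraglutide-treated animals, 17 members had an unadjusted p under 0.05 for PYY3-36, 0 for liraglutide and 19 for both drugs, all of them below 0, and none was called in edgeR (lowest adjusted p = 0.198, 0.973 and 0.386). The medians there were -0.22, -0.08 and -0.22, and -0.12 for both drugs in batch A. The lowest p in the fit of all libraries was that of Rps25, of the small subunit head, in PYY3-36 + liraglutide (-0.30 ± 0.15, SE; adjusted p = 1, edgeR) and in PYY3-36 (-0.31 ± 0.20, SE; adjusted p = 0.68, edgeR). In liraglutide it was Rps28 (-0.26 ± 0.23, SE; adjusted p = 1, edgeR). The 3 comparisons use the same 8 saline-treated animals, and the shares of all genes at an unadjusted p under 0.05 are not given.

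The control groups were compared with each other. Sham-treated animals had a median of 0.27 relative to saline-treated animals, with 81 members above 0, and 0.26 and 0.29 within batches A and B, where 0 and 65 members had an unadjusted p under 0.05 and none was called in edgeR. No member was called by edgeR (33 had an unadjusted p under 0.05; all genes called, 0.0137%, and 0.00914% with a fold over 1) or DESeq2. The shares of all genes at an unadjusted p under 0.05 are not given, and the members rise and fall together. The counts of 33 and 65 therefore do not show that the members moved more than other genes. Rpl13 gave 0.34 ± 0.11 (SE; adjusted p = 0.232, edgeR), Rps15 0.39 and Rpl6 0.19. Relative to saline instead of sham, RYGB had a median of -0.03, lean of -0.06 and BWM of 0.22, with no member called in edgeR (0, 0 and 2 had an unadjusted p under 0.05). Rpl13 in RYGB-treated animals then gave -0.06 ± 0.11 (SE; adjusted p = 1, edgeR).

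**Figure D4:**
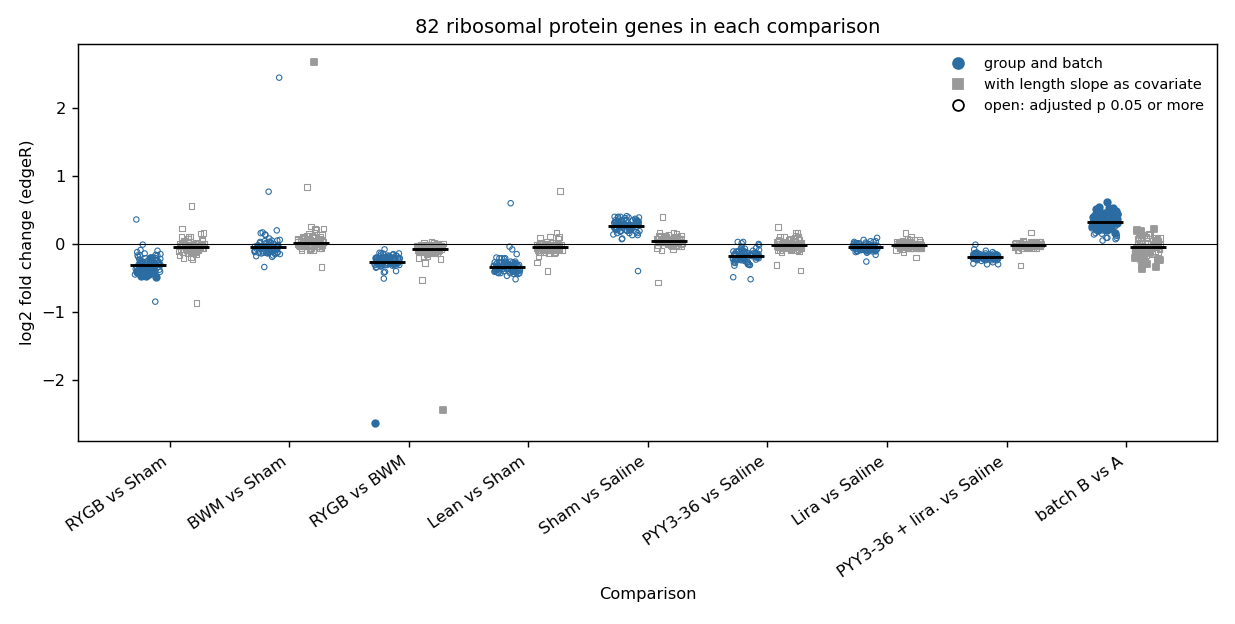
Log2 fold change of the 82 genes in each comparison, from the edgeR fit with group and batch (blue circles) and with the length slope as a further covariate (grey squares). Filled symbols have an adjusted p under 0.05 and bars are medians. The RYGB median moves from -0.30 to -0.04 with the covariate, and the lone points near -2.6 and 2.5 are Rpl39l in the BWM comparisons.

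Most calls were made between the batches. At equal group, 61 of 82 members rose in batch B compared with batch A and none fell, beside 19.3% of all genes that were higher and 40.7% called in either direction. The median was 0.33, with all 82 values above 0. Rplp0 gave 0.44 ± 0.07 (SE; adjusted p = 9e-07, edgeR), Rpsa 0.44 ± 0.08 (adjusted p = 3.42e-06), Rpl10 0.45 ± 0.08 (adjusted p = 3.86e-06) and Rpl31 0.62 ± 0.12 (adjusted p = 1.77e-05, edgeR).

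The remaining 4 of the 8 lowest p were those of Rpl10a, Rpl15, Rps14 and Rpl3, with 0.29 to 0.53. With the length slope as covariate, 21 members were called, 6 higher and 15 lower, at a median of -0.04. The share of all genes called in that fit is not given. On average the slope was 0.71 for batch A libraries and 0.64 for those of batch B. Period and fragment length cannot be told apart.

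The levels of the members rose and fell together across animals. After subtraction of group and batch means, the median correlation of log2 CPM over 3321 pairs of members was 0.90 across 65 libraries, and 67 members had a correlation above 0.9 with the mean of the others. All points share the library's depth and length slope, so this is a description. Rpl11 followed the mean most closely among the genes named here (0.99), and Rpl10l (0.35), Rpl39l (0.29) and Rpl3l (0.03) did not follow it. The SD of the members' mean log2 CPM between animals of a group was 0.27, about the size of the median difference between RYGB and sham.

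The 10 genes outside the rule with the most similar pattern all had locus numbers in place of a name, and 6 of them were counted as copies of members, with mean correlations of 0.89 to 0.90 over 65 libraries. Among genes with a symbol, Fau, which encodes a ribosomal protein fused to a ubiquitin-like domain, came closest that was not a pseudogene or copy (0.88).

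Other genes of translation were described from lists in the comparison of RYGB with sham. Of 7 ribosomal protein genes under other names, none was called, with a median of -0.32. Fau gave -0.34 ± 0.13 (SE; adjusted p = 0.0578, edgeR), whereas the small subunit scaffold Rack1 gave -0.08 ± 0.06. Of 13 elongation factor and other TOP genes, none was called and the median was -0.06. Eef1a1 and Eef2, which carry out elongation, gave 0.13 ± 0.06 and 0.06 ± 0.06 (SE; adjusted p = 0.174 and 0.524, edgeR).

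In this comparison 1428 (6.53%) of all 21871 genes tested were lower and 1425 higher. Among 31 initiation factors, 7 fell and 2 rose. Those that fell included Eif5a (-0.33 ± 0.08, SE; adjusted p = 0.00704, edgeR), Eif4a1, the helicase of cap-dependent initiation (-0.24), Eif1 (-0.35) and Eif3i (-0.28), and those that rose were the scaffolds Eif4g1 (0.39 ± 0.10) and Eif4g2 (0.17 ± 0.05). Of 34 ribosome biogenesis genes, 8 fell and 1 rose. The methyltransferase Fbl (-0.41 ± 0.09, SE; adjusted p = 0.00403, edgeR) and the pseudouridine synthase Dkc1 (-0.45 ± 0.11; adjusted p = 0.00497) fell with Rrp9 (-0.33), Pes1 (-0.21), Nop10 (-0.40) and Polr1e (-0.30), and Rrn3, an RNA polymerase I initiation factor, rose (0.24).

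Of 26 genes of the mTOR axis, 4 fell and 3 rose, and the median was -0.02. Beside these counts, 1428 (6.53%) of all 21871 genes tested were lower and 1425 higher. Eif4ebp2, a repressor of cap-dependent translation under mTOR, rose by 1.04 ± 0.18 (SE; adjusted p = 0.000738, edgeR), with Rictor, of mTOR complex 2 (0.30), and the stress-induced mTOR inhibitor Sesn2 (0.47). Lamtor4 (-0.42) and Lamtor2 (-0.39), which anchor mTOR complex 1 on lysosomes, fell, as did Rps6kb2 (-0.43), an S6 kinase. Mtor (-0.08, adjusted p = 0.471), Larp1 (-0.05, adjusted p = 0.699) and Rps6kb1 (0.19, adjusted p = 0.133, edgeR) were not called.

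Of 76 mitochondrial ribosomal protein genes, 43 fell and none rose, at a median of -0.28, led by Mrpl58 (-0.41 ± 0.09, SE; adjusted p = 0.00237, edgeR), Mrps16 (-0.51 ± 0.11; adjusted p = 0.00249) and Mrpl36 (-0.39 ± 0.08; adjusted p = 0.00264, edgeR). Of 38 proteasome subunit genes 10 fell, among them Psmb10 (-0.55), Psmb2 (-0.36) and Psma7 (-0.36), and none rose. Over all genes tested, 6.53% were lower. With the length slope as covariate the calls were 3 lower among the mitochondrial ribosomal genes (median -0.13), 0 among initiation factors, ribosome biogenesis and proteasome genes, and 1 in each direction on the mTOR axis. Without the 12 libraries low in hypothalamic markers they were 11 lower for the mitochondrial ribosomal genes, 2 lower each for ribosome biogenesis and proteasome, 1 higher for initiation factors, and 2 higher and 1 lower on the mTOR axis. The shares of all genes called under these settings are not given. In BWM compared with sham, no gene of any of these lists was called in the edgeR fit with group and batch. With the length slope as covariate, 1 gene of the mTOR axis was higher.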

How the data were processed

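Poly-A RNA of 65 hypothalami was sequenced as stranded single-end 75 nt reads. According to the authors' methods and processing notes, reads were trimmed with cutadapt (1.16 in the notes, with later versions also named in the methods), aligned to Rnor_6.0 with STAR 2.7.2b and counted over exons of RefSeq annotation 106 with featureCounts 1.6.4, with reads that matched several places or genes counted fractionally. The values deposited by the authors are therefore expected counts (fractional, per gene), not normalized. They were rounded to whole numbers here, and CPM and RPKM (per summed exon length) were computed from them.

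Genes were filtered with filterByExpr (minimum count 10, total 15), scaled by TMM and tested with edgeR 4.0.16 (robust quasi-likelihood, all 65 libraries, group and batch; R 4.3.3) with Benjamini-Hochberg adjustment. An adjusted p under 0.05 was a call. Counts of members at an unadjusted p under 0.05 are given throughout without the share of all genes at that threshold. ± after a fold change is the SE. The fit was tested on simulated counts with known changes in RYGB, drawn independently per gene without batch or length slope effects. That test does not cover genes that vary together, as the members do. The members, marker lists and gene lists were chosen with earlier results of these data known.

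Named genes were up to 8 called members of lowest p per comparison (the 3 of lowest p where fewer than 3 were called), the 4 highest and 4 lowest by RPKM, members with a known role or a paralogue, and up to 6 called genes per list. Alternatives were DESeq2 1.42.0, its size factors, no filter, a fold threshold, no batch term, the replicate number as a block, a length slope covariate, single batches, 2 groups only, saline controls and leaving out each library. Adding the copies' counts, leaving out libraries low in hypothalamic markers and leaving RYGB animal 11 out of batch A were chosen after seeing the data. Replicate numbers did not pair the samples: in RYGB and sham, 4 of 11 same-numbered pairs had correlated deviations over 0.1 (-0.275 to 0.278). Only liraglutide and saline had all 5 pairs over 0.1 (0.221 to 0.453), although the labels put saline animals 1 to 3 in another batch. Each library is 1 animal, and for most members counting error is small against the spread between animals at these depths. It weighs more for Rpl3l, Rpl39l and Rpl10l, with medians of 11, 28 and 54 counts per library. The values of 1 listed gene are not reported here.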

Additional observations from a re-analysis of the deposited data

Results flagged for a closer look

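In groups of 4 to 10 animals, 120 sets of values (the share of counts on the members and single named genes) were tested for a library far from the others by Dixon's criterion, and 25 were found. Chance alone gives about 1 in 20. The values are correlated, since the members rise and fall together, and RYGB animal 11 was not tested because its group exceeds 10.

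In the lean group, animal 6 stood apart. Its share of counts was 2.58% (next 1.61%), with 172 CPM of Rplp2, 310 CPM of Rps6, 381 CPM of Rpl11, 453 CPM of Rps27a, 803 CPM of Rpl13a, 464 CPM of Rps3, 526 CPM of Rpl41, 46.3 CPM of Rpl39, 230 CPM of Rps27 and 17.1 CPM of Rps27l. In the PYY3-36 + liraglutide group, animal 10 had a share of 2.19% (next 1.71%), with 126 CPM of Rplp2, 317 CPM of Rps6, 377 CPM of Rpl5, 350 CPM of Rpl11, 464 CPM of Rps27a, 644 CPM of Rpl13a, 418 CPM of Rpl41, 245 CPM of Rps27 and 15.3 CPM of Rps27l. The slope of log2 CPM on log2 exon length was 0.59 in both libraries, and its part in these values was not tested.

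BWM animal 5 had 40 CPM of Rpl39l (next 4.38). PYY3-36 animal 2 had 335 CPM of Rps27a (next 297), liraglutide animal 2 had 305 CPM of Rps6 (next 243), and liraglutide animal 3 had the lowest Rpl39l of its group, 0.792 CPM (next 1.44).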

How the results depend on the processing

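For RYGB against sham, the 14 calls became 0 with the fold threshold, the length slope covariate, batch A alone, saline controls or without the 12 libraries low in hypothalamic markers, 1 with the 2 groups only, 3 without a filter, 4 in batch A without RYGB animal 11, 7 with DESeq2 size factors, 69 without a batch term and 70 in batch B alone. The median was -0.04 with the covariate, -0.03 with saline controls and -0.59 in batch B. With the replicate number as a block the RYGB against sham count was 35, and the block ended the single call of RYGB against BWM (0). The block changed no other call among counts of members. Leaving out single libraries gave 1 to 71 calls (median -0.41 to -0.26) for RYGB against sham, 0 to 1 (-0.14 to -0.01) for BWM against sham, 0 to 2 (-0.38 to -0.16) for RYGB against BWM and 0 to 47 (-0.54 to -0.29) for lean against sham. It gave 0 to 0 for PYY3-36 (-0.23 to -0.10), liraglutide (-0.07 to 0.02), both drugs (-0.25 to -0.14) and sham against saline (0.24 to 0.32). BWM against sham had 1 call, Rpl39l, with DESeq2, without a batch term or with the covariate. Its median turned to 0.03 in batch A. RYGB against BWM had 0 in batch A, with or without RYGB animal 11, and with the 2 groups only. Lean against sham had 61 without a batch term, and its median was -0.05 with the covariate and -0.06 with saline controls. Signs turned for Rpl6 in BWM (0.07 with saline controls) and Rps28 in liraglutide (0.01 with the block). Of single genes under other settings, 283 values kept direction and call, 54 lost and 6 gained a call. Adding the copies' counts (14) and DESeq2 (15) left the RYGB count near its value. Apart from what the settings change by construction, the cause was not tested. Shares of all genes called are not given beside the counts of this section. A change in a count therefore does not show that the members changed more than other genes.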
